A study of Mus musculus with 5 samples.

Results

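The nuclear genes for subunits of the mitochondrial respiratory chain were examined in joint tissue of mice that lack both epiphycan and biglycan. They were taken by gene symbol: the complex I families Ndufa, Ndufb, Ndufc, Ndufs and Ndufv, the 4 succinate dehydrogenase genes Sdha to Sdhd, the Uqcr genes with Cyc1, the cytochrome c oxidase families Cox4i, Cox5, Cox6a1, Cox6b, Cox6c, Cox7 and Cox8, and the Atp5 genes. Of 12394 genes on the array, 87 met this rule, with 160 of the 22690 probe sets. Probe sets that carry several symbols were left out, which removed 8. Each gene was read from its brightest probe set by mean over the 5 arrays. The rule takes 34 genes of complex I, 4 of complex II, 9 of complex III, 10 of complex IV and 17 of complex V. It also takes the muscle isoforms Cox7a1 and Cox8b, 3 other tissue-restricted isoforms and 8 assembly factors, and these were kept apart. The symbols follow no measured value, and 0 of the 87 genes lie within 10 Mb of Bgn and 1, Ndufa12, within 10 Mb of Epyc.

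RNA from the tibio-femoral joint, the articulation of the knee, was measured on Affymetrix mouse arrays. All animals were male, 3 months old and of a C57/Bl6:129 hybrid strain. The 2 wildtype pools were compared with 3 pools from epiphycan and biglycan double-null mice, each pool holding 6 joints of 3 mice. A pool is 1 sample, so the spread between animals was not measured, and whole joints hold cartilage, bone, marrow and attached soft tissue together. In such bulk tissue, fewer cells of a type and less RNA per cell cannot be told apart. The signals were deposited in 2 value tables: the 2-array table holds wildtype pool 2 and double-null pool 3, and the 3-array table holds wildtype pool 1 with double-null pools 1 and 2. The tables are filed under different array platform records that list the same probe sets, and no label says what else sets them apart. A difference between platform records, any other difference between tables and a difference between these pools therefore cannot be told apart. The labels were checked on the targeted genes. Bgn read 3413 and 2003 in the wildtype pools against 204, 224 and 206 in the double-null pools. Epyc read 91.2 and 78.8 against 10.8, 3.38 and 1.29.

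The respiratory chain passes electrons from NADH (complex I) and succinate (complex II) through complex III to complex IV, which reduces oxygen. The proton gradient built on the way drives ATP synthase, complex V. Articular chondrocytes live at low oxygen and rely much on glycolysis, whereas skeletal muscle is rich in mitochondria and uses its own isoforms of several complex IV subunits. Nuclear respiratory factor 1 (NRF1) and the ETS-family factor GABP are known regulators of many of these nuclear genes, and each recognises a short sequence close to the transcription start.

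The 120 bases before the start of 5 members are printed as examples, and they do not stand for the other members. Atp5k had the highest genotype difference among the members, Ndufs5 the lowest and Sdha the highest of complex II. Cox7a1 and Cox8b, the muscle isoforms, differed most between the tables. The sequences are those of RefSeq on GRCm38.p6, read 5′ to 3′ along the gene, with matches to the NRF1 motif in capitals. The motif searched was GCGC, any base and TGCGC in one run of letters, on either strand.
Atp5k (chr5:108434400-108434519, minus strand): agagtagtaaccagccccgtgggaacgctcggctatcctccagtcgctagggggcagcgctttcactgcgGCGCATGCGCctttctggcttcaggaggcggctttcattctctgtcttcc
Sdha (chr13:74350241-74350360, minus strand): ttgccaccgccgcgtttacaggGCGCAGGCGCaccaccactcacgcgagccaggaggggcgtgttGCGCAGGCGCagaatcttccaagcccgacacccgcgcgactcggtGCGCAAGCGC
Ndufs5 (chr4:123718187-123718306, minus strand): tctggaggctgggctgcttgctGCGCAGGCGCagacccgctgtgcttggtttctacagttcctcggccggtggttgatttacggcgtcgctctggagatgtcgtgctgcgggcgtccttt
Cox7a1 (chr7:30184051-30184170, plus strand): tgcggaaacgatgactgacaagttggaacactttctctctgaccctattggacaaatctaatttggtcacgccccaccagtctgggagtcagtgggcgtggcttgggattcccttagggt
Cox8b (chr7:140900447-140900566, minus strand): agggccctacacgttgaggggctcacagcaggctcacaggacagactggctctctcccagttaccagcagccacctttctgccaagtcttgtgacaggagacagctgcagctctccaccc
The printed stretch of Sdha holds the NRF1 motif 3 times, those of Atp5k and Ndufs5 hold it 1 time each, and those of Cox7a1 and Cox8b hold 0 matches to it or to the ETS motif CCGGAAG, searched on either strand. A window from 250 bases before to 50 after the start was at hand for 73 of the 87 genes. The NRF1 motif lay in 17 of these 73 windows (23.3%), against 5.19% of the 27025 windows of all genes and 12.6% of the 6075 windows of the genes tested here. The ETS motif lay in 20 of the 73 (27.4%), against 9.93% of all windows and 21.3% of those of tested genes. Of the other members at an unadjusted p under 0.05 between genotypes (limma), Ndufa6 held the NRF1 motif in this window. Atp5b, Ndufs7 and Ndufa12 held neither motif. The NRF1 motif was also absent from the windows of Cox7a2 and Cox8a, the isoforms used outside muscle. The tested members with an NRF1 motif had a median log2 fold change between genotypes of -0.11 (16 genes), and those without one a median of 0.0042 (54 genes). For the ETS motif the medians were 0.085 with (20 genes) and -0.019 without (50 genes). A match describes the letters of the window and is not a measured binding site.

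No respiratory chain gene differed between double-null and wildtype joints past the threshold. The 84 members bright enough to test had 0 calls at an adjusted p under 0.05 (limma, Benjamini-Hochberg over the 7436 genes tested), where 9 genes, 0.121% of all, were called. At an unadjusted p under 0.05, 7 of the 84 passed, 8.33% against 6.19% of all genes. The 3 with higher values in double-null joints (3.57% of members against 3.54% of all genes) were Atp5k, Atp5b and Sdha. The 4 with lower values (4.76% against 2.65%) were Ndufs5, Ndufs7, Ndufa6 and Ndufa12. The fold change is given on the scale log2(signal + 32) throughout. The members centred on no difference: 42 had a positive and 42 a negative log2 fold change, the median was 0.0011 and the range -0.44 to 0.71. The SD over these genes was 0.20, against 0.24 over all genes tested. After normalisation, the double-null and wildtype pools did not overlap for 14 of the 84 members (16.7%, against 19.7% of all genes tested). Double-null pools lay above for 7 (8.33% against 9.45%) and below for 7 (8.33% against 10.2%).

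The size of change that these 5 pools leave room for was small for most members. An absolute log2 fold change under 0.2, a fold of 1.15, was found for 64 of 84 members (76.2%), against 67.6% of all genes. The 95% confidence interval lay within 1.5-fold either way for 64 members (76.2% against 58.4%) and within 2-fold for 83 (98.8% against 96.8%). The exception was Atp5k. With 2 against 3 pools there are 10 arrangements when the tables are ignored. An exact two-sided permutation test of a single gene then cannot go below p = 0.1. Keeping each pool within its table leaves fewer arrangements and a higher floor. The calls rest on the model fitted across all genes. Cox7c, Ndufaf5 and Ndufaf7 lay below the brightness filter and were not tested, with signals from 46.5 to 65.5 for Cox7c.

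**Figure D1:**
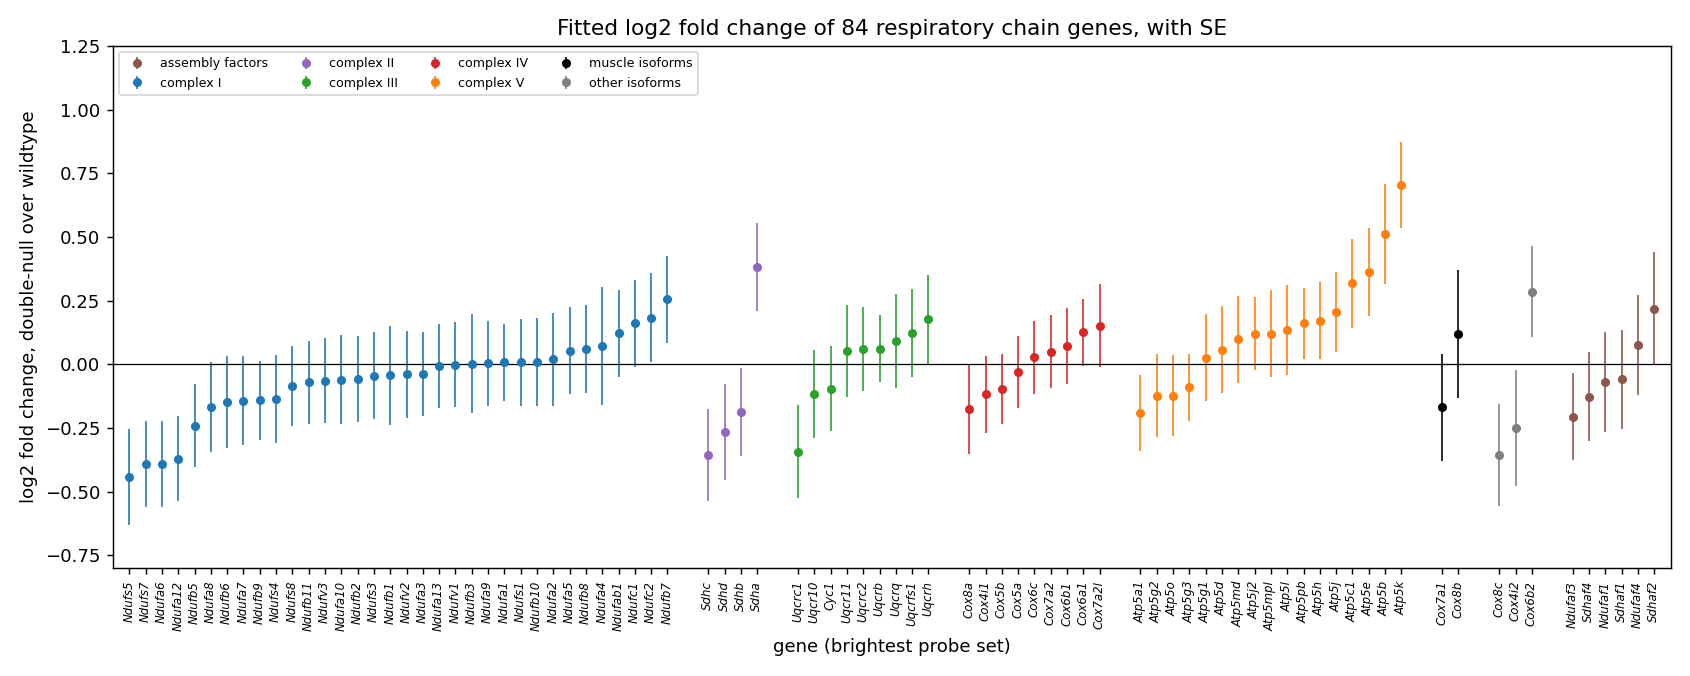
Fitted log2 fold change of double-null over wildtype (vertical axis) for the 84 tested respiratory chain genes, sorted within each complex, where points are estimates and bars 1 SE. Atp5k stands highest at 0.71 and Ndufs5 lowest at -0.44, and the median over the 84 genes is 0.0011.

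Complex I, the NADH dehydrogenase, had 13 positive and 21 negative values among its 34 genes, with a median of -0.041, and 0 passed the adjusted test. The 6 measured core subunits, which carry the electron path, had a median of -0.042, and the 28 accessory subunits around them had a median of -0.040. Ndufs5, an accessory subunit, read 392 and 488 in the wildtype pools and 211, 249 and 438 in the double-null pools. The first and second double-null pools were low, while the third lay between the wildtype values. The log2 fold change was -0.44 ± 0.19 (SE), with an adjusted p of 0.76 (limma). Ndufs7, the core subunit that holds the last iron-sulphur cluster before ubiquinone, read 927 and 1086 against 721, 645 and 861. All 3 double-null pools lay below both wildtype pools, at -0.39 with an adjusted p of 0.77 (limma).

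Ndufa6, an accessory subunit of the LYR family, read 854 and 1042 in wildtype and 640, 602 and 842 in double-null joints, again without overlap (log2 fold change -0.39). Ndufa12, another accessory subunit, read 1386 and 1476 against 1016, 1104 and 1205, at -0.37. It is the member that shares its stretch of chromosome with the deleted Epyc gene, and any part of that position in its value was not tested. At the upper end, Ndufb7 read 1470 and 1281 against 1669, 1569 and 1837 and did not overlap, at 0.25 (unadjusted p 0.16, limma). Ndufc2 followed at 0.18 and Ndufc1 at 0.16, both with overlapping pools. Among the other core subunits, Ndufs8 was at -0.086, Ndufs3 at -0.045, Ndufv2 at -0.039, Ndufv1 at -0.0011 and Ndufs1 at 0.0088. None of these 5 was more than 1 SE from 0. Ndufab1, the mitochondrial acyl carrier protein that is also a subunit of the complex, was at 0.12.

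Complex II, succinate dehydrogenase, also serves the citric acid cycle, and its 4 subunits did not point one way. Sdha, the flavoprotein that oxidises succinate, read 966 and 1426 in wildtype pools and 1596, 1468 and 1558 in double-null pools. The double-null pools lay together and above both wildtype pools, with the first wildtype pool well below the rest. Its log2 fold change was 0.38 ± 0.17 (SE), with an adjusted p of 0.79 (limma). Sdhc, a membrane anchor, read 777 and 805 against 645, 734 and 534, at -0.36 and without overlap (unadjusted p 0.073, limma). Sdhd, the other anchor, read 589 and 656 against 503, 384 and 619 with overlapping pools, at -0.27. The iron-sulphur subunit Sdhb was at -0.19, its pools overlapping too. The median of the 4 was -0.23, but within the 2-array table alone it was -0.034 and within the 3-array table -0.26.

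Complex III hands electrons from ubiquinol to cytochrome c. After normalisation its pools overlapped for all 9 genes, and the median was 0.060. Uqcrc1, a core protein, had the lowest value of the complex. It read 1711 and 1548 in wildtype and 1153, 1182 and 1538 in double-null pools. The first and second double-null pools were low and the third matched wildtype pool 2, which gave -0.34 (unadjusted p 0.085, limma). As deposited, the third lay just below the lower wildtype value. Cyc1, the haem subunit cytochrome c1, read 2090 and 1968 against 1760, 2030 and 2058, at -0.095. The Rieske protein Uqcrfs1 was at 0.12, the hinge protein Uqcrh at 0.18, Uqcrq at 0.092 and Uqcr10 at -0.12.

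Complex IV, cytochrome c oxidase, had 5 positive and 4 negative values among the 9 tested subunits that are not restricted to a tissue, with a median of 0.028. Cox6a1 read 5795 and 4633 in wildtype and 5447, 6660 and 5203 in double-null pools, and its pools overlapped (0.13). Cox7a2l, a relative of Cox7a2 that is known for joining complexes III and IV into supercomplexes, read 1050 and 1003 against 1214, 1132 and 1146. The double-null values were all above the wildtype values by a small margin, at 0.15 with an unadjusted p of 0.37 (limma). The dimmer probe sets of Cox7a2l went the other way, at -0.073 and -0.083. Cox8a read 1432 and 1519 against 1659, 1193 and 1236, at -0.18 with overlapping pools. Its other probe set above the brightness filter was nearly as bright and read 1516 and 1638 against 1323, 954 and 1267. That one was at -0.43 without overlap as deposited (adjusted p 0.88, limma over all probe sets). Cox4i1 was at -0.12, Cox5b at -0.097, Cox5a at -0.031, Cox7a2 at 0.049 and Cox6b1 at 0.072. Ndufa4, counted with complex I by its symbol but now placed with complex IV, was at 0.073.

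Complex V, ATP synthase, had the largest share of positive values of the 5 complexes, 13 of 17 genes with a median of 0.12. Over all genes tested, 47.9% of all genes were positive. Atp5k, the e subunit of the membrane part, read 1742 and 3183 in the wildtype pools and 3693, 3467 and 4076 in the double-null pools. All double-null values lay above both wildtype values, and wildtype pool 1 was far below the other 4. The log2 fold change was 0.71 ± 0.17 (SE; 95% interval 0.34 to 1.08), with an unadjusted p of 0.0014 and an adjusted p of 0.22 (limma). It passed the threshold when double-null pool 2 was left out, with an adjusted p of 0.022 (limma), and had an adjusted p of 0.999 without wildtype pool 1. Within the tables the difference was 0.34 in the 2-array table and 0.98 in the 3-array table.

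Atp5b, the catalytic beta subunit of the F1 head, read 1972 and 4152 in wildtype and 4130, 3554 and 4374 in double-null joints. Wildtype pool 1 was at the bottom and wildtype pool 2 within the double-null range. The log2 fold change of 0.51 ± 0.19 (SE; adjusted p 0.71, limma) came from 1 table, with a difference of 0.90 in the 3-array table and 0 in the 2-array table after quantile normalisation. The gamma subunit Atp5c1 read 1377 and 1823 against 2311, 1901 and 1841, at 0.32, and the epsilon subunit Atp5e 659 and 905 against 1014, 844 and 1076, at 0.36. Only Atp5c1 of this pair had pools that did not overlap. Atp5j, the coupling factor 6 of the stalk, was at 0.21, and Atp5pb, the peripheral stalk subunit b, at 0.16, both without overlap. The dimmer probe set of Atp5pb was at -0.26.

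The remaining F1 subunits, Atp5a1 (alpha) and Atp5d (delta), were at -0.19 and 0.058. Atp5a1 read 3884 and 3448 against 3200, 2793 and 3548. Its pools overlapped as deposited and fell apart, double-null below, after quantile normalisation. Of the genes for the rotating c-ring, Atp5g2 was at -0.12, Atp5g3 at -0.090 and Atp5g1 at 0.027. The F1 head thus had a median of 0.32 (5 genes), the c-ring of -0.090 (3 genes) and the stalk and membrane part of 0.14 (9 genes). The median level of the F1 genes was lowest in wildtype pool 1, 0.37 below their 5-array mean on the log2 scale (-0.37), and lay at 0.041 in wildtype pool 2.

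**Figure D2:**
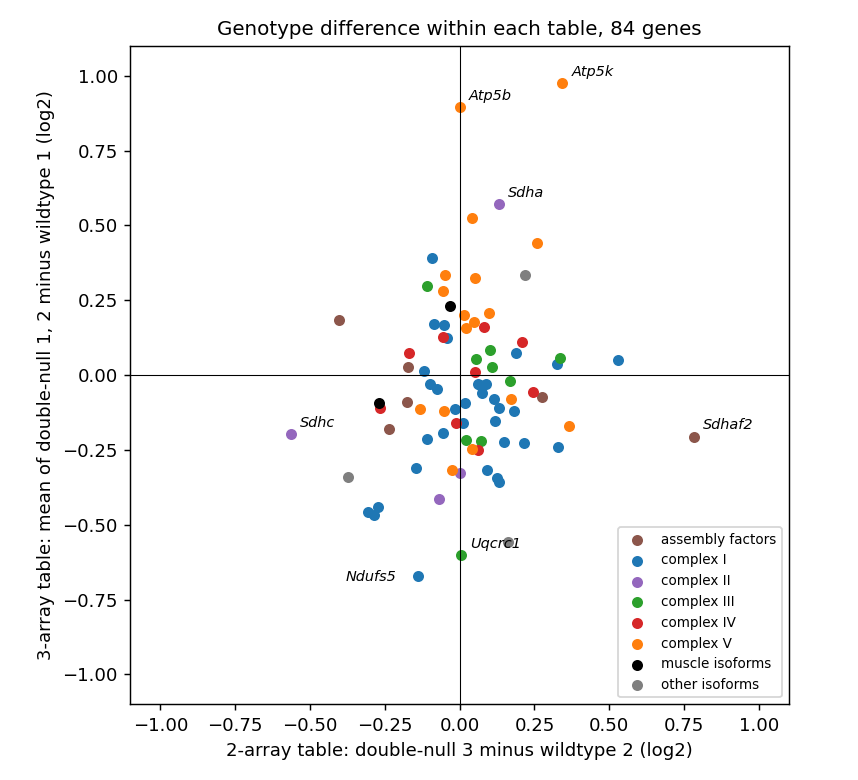
Difference between double-null and wildtype in the 2-array table (horizontal, log2) against that in the 3-array table (vertical, log2), 1 point for each of the 84 tested genes, coloured by complex. Atp5k lies to the upper right (0.34 and 0.98), Atp5b at 0 and 0.90, and 48 points are right of 0 on the horizontal axis and 34 above 0 on the vertical axis.

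Read table by table, the members did not keep one direction. In the 2-array table, with 1 pool a genotype and no replicate, 48 of 84 differences were positive, with a median of 0.031. In the other table, of 3 arrays, the positive differences numbered 34, with a median of -0.066. The medians over all genes tested were -0.016 and -0.0077. Complex I had 19 positive of 34 in the 2-array table and 8 in the 3-array table, while complex V had 11 positive of 17 in each. For the 6 core subunits of complex I, 5 were positive in the 2-array table and 0 in the 3-array table. These contrasts between tables were not tested, since the 2-array table has no replicate.

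Several probe sets report on the same gene for many members, and they often differed. Of 41 members with more than 1 probe set above the brightness filter, 24 (58.5%) had log2 fold changes of both signs, against 49.0% of the 2545 such genes overall. Atp5k ranged from -0.16 to 0.71 over its 3 probe sets. Averaged over its probe sets, its value was 0.25 (adjusted p 0.82, limma). In complex V, Atp5a1, Atp5d, Atp5h, Atp5o and Atp5pb also had both signs above the filter. Atp5d ranged from -0.29 to 0.058, and Atp5a1 from -0.23 to 0.13. The range of Atp5h was -0.0085 to 0.17, and that of Atp5o -0.12 to 0.011. For Sdha the dimmer probe set was at -0.072 and the brighter one at 0.38. Above the filter, Ndufs7 ranged from -0.39 to 0.12, Ndufa12 from -0.37 to 0.059, Sdhd from -0.27 to 0.069, Cox5b from -0.097 to 0.15 and Ndufb5 from -0.24 to 0.19. Ndufs5, Ndufa6, Atp5b, Atp5e and Uqcrc1 have 1 probe set each, so no such comparison could be made for them.

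**Figure D3:**
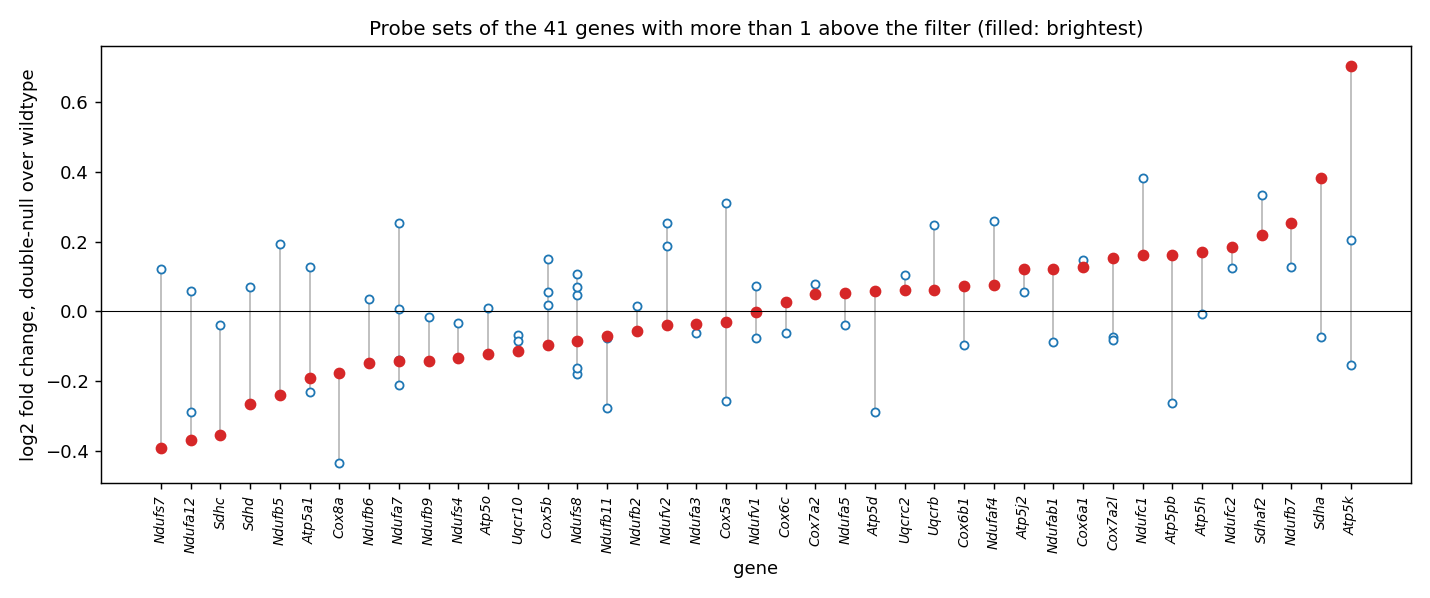
Log2 fold change of double-null over wildtype (vertical) for every probe set above the brightness filter, for the 41 genes with more than 1, where the filled point is the brightest and a line joins probe sets of a gene. For 24 of the 41 genes the points lie on both sides of 0.

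The median level of the members was highest in both pools of the 2-array table, at 0.12 and 0.15 against -0.058, -0.084 and -0.13 in the 3-array table (log2, relative to each gene's 5-array mean). Both pools of the 2-array table lay above all 3 others for 41 of the 84 tested members (48.8%), against 12.1% of all genes, and below them for 1, Cox6a1 (1.19% against 12.8%). The table term of the fit, which is the 2-array table over the 3-array table at equal genotype and was read after the values had been seen, had a median of 0.24 on the log2 scale, against -0.022 over all genes. It was positive for 71 of 84 members. Members higher in the 2-array table in both genotypes numbered 52 (61.9%, against 23.8% of all genes). Wildtype pool 2 exceeded wildtype pool 1 by a median of 0.20, and double-null pool 3 exceeded the mean of double-null pools 1 and 2 by a median of 0.27, while the same medians over all genes were -0.017 and -0.014. With the arrays centred on their medians in place of quantile normalisation, the count of 41 became 25 (9.21% of all genes) and the median of the table term 0.10 (all genes -0.068).

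By complex, the median of the table term was 0.25 in complex I, 0.32 in complex II, 0.25 in complex III, 0.12 in complex IV and 0.21 in complex V. Complex I had its median level at 0.015 and 0.13 in the wildtype pools and at -0.14, -0.16 and 0.18 in the double-null pools, relative to each gene's 5-array mean. Double-null pool 3 was thus nearer to wildtype pool 2 than to the other double-null pools. The c-ring gene Atp5g1 read 697 and 1054 in wildtype and 702, 634 and 1169 in double-null pools. The 2 high values were those of the 2-array table, and the term was 0.71 (adjusted p 0.10, limma). Ndufa4 read 1141 and 1855 against 1892, 942 and 1756, so that double-null pool 1 stood with the 2-array pools and pool 2 lowest (0.56). Ndufc1 had a term of 0.60 and Atp5md, a small membrane subunit, of 0.56. At an unadjusted p under 0.05, 18 members were higher in the 2-array table (21.4% against 5.34% of all genes) and 1, Cox8c, was lower (1.19% against 3.17%).

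**Figure D4:**
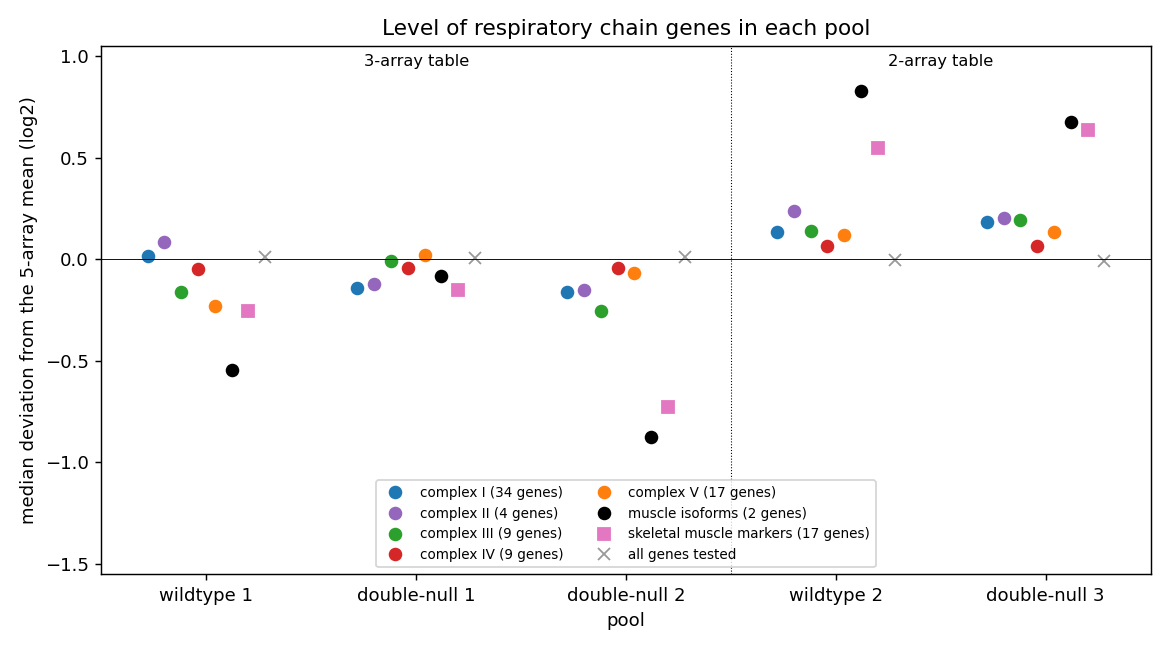
Median deviation from the 5-array mean (log2, vertical) of the genes of each complex, of the muscle isoforms, of skeletal muscle markers and of all genes tested, in each of the 5 pools (horizontal, the 3-array table left of the dotted line). The muscle isoforms read 0.83 and 0.68 in the 2-array pools and -0.55, -0.083 and -0.87 in the others. Complexes I to V are all above 0 in the 2-array pools. Within the 3-array table, complex III has the same order over the pools as the isoforms (-0.16, -0.0089 and -0.26). Complexes I, II, IV and V have other orders: complex I is at 0.015 and complex V at -0.23 in wildtype pool 1.

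The isoforms of complex IV that belong to heart and skeletal muscle moved most with the table. Cox7a1 read 189 in wildtype pool 1 and 548 in wildtype pool 2, and 215, 133 and 446 in the double-null pools. Both 2-array pools stood above the other 3, and the genotypes overlapped widely. Its genotype difference was -0.17 ± 0.21 (SE), and its table term 1.30 with an adjusted p of 0.025 (limma), the single member called for that term, where 0.686% of all genes were called. That call was lost without wildtype pool 1 (adjusted p 0.345), without wildtype pool 2 (0.34), without double-null pool 3 (0.398), with median centring (0.060) and with no brightness filter (0.29), while the term stayed between 1.155 and 1.447. Cox8b read 243 and 660 against 411, 197 and 642, with a genotype difference of 0.12 ± 0.25 (SE) and a table term of 1.20 (adjusted p 0.058, limma). The Cox8b term passed the threshold without double-null pool 1 or without double-null pool 2 (adjusted p 0.000368 and 0.00377, limma).

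The paired isoforms used outside muscle had small table terms. Cox7a2 read 4322 and 4370 in wildtype and 4116, 5030 and 4496 in double-null pools, with a table term of 0.12. For Cox8a the term was -0.022. Cox8c, a testis isoform, went the other way, at 525 and 359 against 326, 499 and 271, with a term of -0.54 (adjusted p 0.41, limma). Cox6b2, another testis isoform, had a genotype difference of 0.28, and Cox4i2, an isoform of lung that responds to oxygen, of -0.25 at signals of 83.4 to 148.

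**Figure D5:**
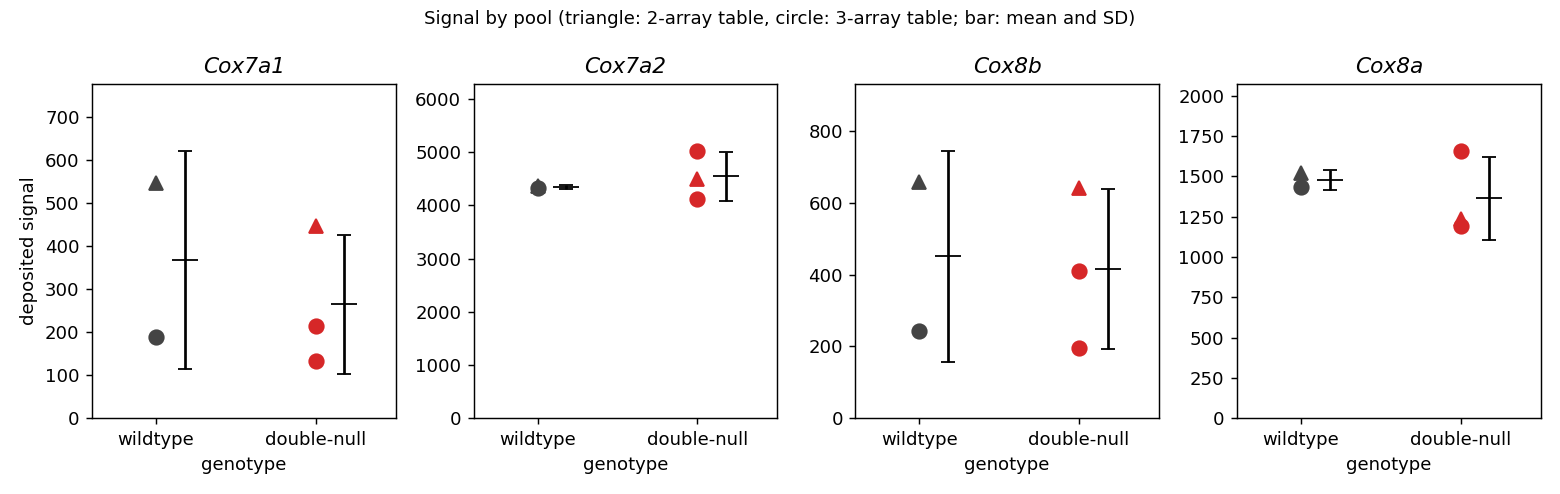
Deposited signal (vertical) of the muscle isoforms Cox7a1 and Cox8b beside Cox7a2 and Cox8a, by genotype (horizontal), where triangles are the 2-array table, circles the 3-array table and bars the mean and SD of the genotype. In the Cox7a1 and Cox8b panels the triangles lie above every circle in both genotypes, and in the Cox7a2 and Cox8a panels they do not.

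Markers of skeletal muscle had high values in the same pools. Their table term was positive for 17 of 17 tested markers of 20 measured, with a median of 1.0. Of these, 8 passed the adjusted threshold (limma), which 0.686% of all genes passed. Both 2-array pools lay above the other 3 for 16 of the 17, against 12.1% of all genes. The signal summed over the 20 markers was 77681 and 97207 in the wildtype pools and 68466, 49182 and 117106 in the double-null pools, and the lowest signal of a single marker was 8.59. Between genotypes, 4 of the tested markers were positive and 13 negative (median -0.13). Slc25a4, the ADP/ATP carrier of muscle and heart, read 2614 and 4235 against 2608, 1917 and 4093, with a term of 0.89 (adjusted p 0.035, limma). Slc25a5, the carrier of most other tissues, had a term of -0.29. The part of muscle tissue in the members' table term was not tested. With Cox7a1 and Cox8b left out, the median term of the other 82 members was 0.23. Both 2-array pools were on top for 39 of them, against 12.1% of all genes.

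Genes that work with the chain were described in the same way, and 0 of them passed the adjusted test between genotypes (limma). Of the assembly factors that the symbol rule takes, 6 of 8 could be tested, with 2 positive and 4 negative values. Other assembly factors of the chain had 10 positive of 17 tested, with a median of 0.046. Electron, phosphate and nucleotide carriers had 5 positive of 16 (median -0.090) and a median table term of 0.24. For the citric acid cycle and pyruvate dehydrogenase 8 of 15 were positive, with a median of 0.028 and a median table term of 0.29. Pdhb, the beta subunit of pyruvate dehydrogenase, was at 0.51 and Ogdh, of the 2-oxoglutarate dehydrogenase complex, at -0.48, both with an unadjusted p under 0.05. Mitochondrial fatty acid oxidation had 4 positive of 14 (median -0.032, table term 0.070).

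Regulators of mitochondrial biogenesis had a median table term of -0.054 over 12 genes. Their genotype values split 6 and 6: Gabpa, the DNA-binding subunit of GABP, was at 0.29, Tfam, which packs and transcribes mitochondrial DNA, at 0.22, and Tfb1m, a mitochondrial rRNA methyltransferase, at -0.45 (unadjusted p 0.045, limma). The mitochondrial ribosome had 25 positive and 48 negative values among 73 tested genes (median -0.049). Its pools did not overlap for 5 genes above (6.85%, against 9.45% of all genes) and 18 below (24.7% against 10.2%). At an unadjusted p under 0.05 (limma), 2 of its 73 genes were higher and 0 lower, against 3.54% and 2.65% of all genes. Protein import had 10 of each sign among 20. Glycolysis, the other route to ATP, had 2 positive and 13 negative values (median -0.17), with a median of 0.075 in the 2-array table and -0.28 in the 3-array table, and a median table term of 0.32. The 2 higher ribosomal genes were Mrpl39 (0.51) and Mrps18c (0.46), and of the glycolysis list Ldhb (-0.66) had an unadjusted p under 0.05. The subunits encoded in mitochondrial DNA were not analysed here.

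Markers of other cells of the joint gave these medians between genotypes: chondrocyte -0.090 (8 tested), osteoblast -0.053 (6), osteoclast -0.28 (5), macrophage -0.017 (9), neutrophil -0.090 (9), erythroid 0.012 (6) and adipocyte -0.28 (4), with 0 called in any of them by the adjusted test (limma). At an unadjusted p under 0.05, which 6.19% of all genes passed, 2 macrophage markers were higher, and 2 osteoclast, 1 neutrophil and 1 adipocyte marker were lower. The chondrocyte markers that passed went both ways, with Comp at 0.83 against Cnmd at -0.43 and Col9a1 at -0.42. Tendon and fibroblast markers were at 1.03, with 3 of 8 tested called by the adjusted test (limma), against 0.121% of all genes. At an unadjusted p under 0.05 (limma), 6 of these 8 were higher and 0 lower, against 3.54% and 2.65% of all genes. Double-null pools lay above both wildtype pools for 75.0% of them, against 9.45% of all genes. The table terms of the lists in this paragraph had medians from -0.25 for chondrocyte to 0.034 for adipocyte markers, against 1.0 for skeletal muscle.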

How the data were processed

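The members, gene lists and tests were chosen with earlier results of these data known. The deposited signal intensity values, 1 per probe set, were made by the authors with MAS5, per the submitters' processing notes. No version or target of that scaling was at hand. The 2% trimmed mean was 250.08 to 250.09 on every array. Arrays give no read depth, and their number (5) limits the precision.

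Gene names came from the platform annotation, updated through RefSeq on GRCm38.p6: of 22690 probe sets, 20393 had 1 symbol, 691 several and 1606 none, and 20364 symbols matched. Signals were taken as log2(signal + 32), quantile normalised, and the brightest probe set per gene was kept. Genes above the 40th percentile of mean level (a signal near 98.5) were fitted with limma 3.58.1 in R 4.3.3 (genotype plus an additive value table term, lmFit, eBayes with intensity trend, 2 residual and 9.85 prior degrees of freedom). P-values are two-sided and Benjamini-Hochberg adjusted over 7436 genes. Their variance draws more on the prior shared across genes than on the residuals of a gene. Those residuals come from double-null pools 1 and 2 and from how far the genotype difference varies between tables. No table holds 2 wildtype pools, so the spread between wildtype pools was not measured apart from the table difference. The script was tested on simulated data.

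Named members were complex IV isoforms, complex II and Cyc1, up to 3 highest and 3 lowest per complex, those at an unadjusted p under 0.05, and those whose probe sets differ in sign. From each other list, up to 3 genes with the smallest p were eligible. Genes named for their table term, or to complete the core and ATP synthase subunits, were chosen after their values were seen. Alternatives changed scaling, pseudocount, filter, table term, variance trend, probe set rule, replicate block and the pools kept.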

Additional observations from a re-analysis of the deposited data

How the results depend on the processing

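The 0 calls among the members held in each alternative with a test but 1, without double-null pool 2, which called Atp5k, a range of 0 to 1 over pools left out. Over all genes, the 9 calls became 5 with deposited scaling, 2 with no filter, 4 with no table term, 2 in the 3-array table alone, 0 with the replicate block in place of the table term (486 at an unadjusted p under 0.05), and 2 to 50 with a pool left out. The cause was not tested. Deviations from the genotype means had correlations of 0.0065 between the pools numbered 1 and -0.18 between those numbered 2. With 2 wildtype pools these correlations depend on each other, and the pools numbered 2 lie in different tables. Whether same-numbered pools belong together therefore cannot be told from them. Under the replicate block the median of complex IV was -0.12 and that of all members -0.14. The complex II median was -0.034 in the 2-array table alone and -0.034 (without wildtype pool 1) to -0.27 with a pool left out. With median centring, 25 members had both 2-array pools on top. With a pool left out, 43 to 57 members had the remaining 2-array pools above the remaining others. That is 1 pool where wildtype pool 2 or double-null pool 3 was dropped. An order of fewer pools is met more easily, and the shares over all genes in these fits are not given here. Of 48 named members, 18 kept their sign throughout, and 2 more (Atp5b and Sdhb) reached 0 in the 2-array table alone and without wildtype pool 1. Wildtype rests on 2 pools, and signal over background limits the dim genes: the brightest of 27 Bacillus control probe sets reached 27.5 to 63.5 per array, and Cox7c read 46.5 to 65.5.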
